A study of Mus musculus with 54 samples.

Results

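The astrocyte genes described here are the 10 rows of the count table whose Ensembl identifiers map to *Slc1a2*, *Slc1a3*, *Glul*, *Aldh1l1*, *Gja1*, *Gjb6*, *Aqp4*, *Gfap*, *S100b* and *Sox9*, of 30031 genes in all. They were chosen by name, as genes that mark astrocytes in the brain, and all 10 were among the 18941 genes tested. The tissue was the suprachiasmatic nucleus (SCN), the hypothalamic nucleus that holds the central circadian clock, cut by laser-capture microdissection from Nissl-stained sections of male C3H/HeH mice aged 10-12 weeks. The mice lived under a 12:12 light/dark cycle and were taken at zeitgeber time (ZT, hr after lights on) 2, 6, 10, 14, 18 or 22, with no other treatment and no genetic change named in the labels. Each of the 6 groups has 3 biological replicates, A, B and C, each a pool of tissue from 5 mice, and the RNA was amplified with the SMARTer protocol before sequencing.

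Astrocytes clear glutamate and potassium from around synapses, pass metabolites to neurons and to each other through gap junctions, and wrap blood vessels with end-feet. In the SCN they have clocks of their own, and their handling of glutamate is known to act on the rhythm of the neurons. *Slc1a2* and *Slc1a3* encode the glutamate transporters GLT-1 and GLAST, and *Glul* encodes glutamine synthetase, which turns the glutamate taken up into glutamine. *Aldh1l1* encodes an enzyme of folate metabolism. *Gja1* and *Gjb6* encode connexin 43 and connexin 30, the gap junction proteins of astrocytes, and *Aqp4* encodes the water channel of the end-feet. *Gfap* encodes an intermediate filament that rises in reactive astrocytes, *S100b* a calcium-binding protein that some oligodendrocytes also make, and *Sox9* a transcription factor of astrocyte identity.

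Between 15412981 and 35820945 reads per replicate were counted on genes, and the lowest count of any of the 10 genes in any library was 732 (*Aldh1l1*). Levels are given as CPM, a gene's counts relative to the library total after TMM scaling. A q is the Benjamini-Hochberg adjusted p of edgeR's quasi-likelihood test over all genes tested, with a threshold of 0.05, and errors of log2 differences are SE with n = 3 per timepoint. The study's principal component plot, with a legend for timepoint and sequencing batch, shows 3 clusters of libraries, each made of a pair of timepoints: ZT22 and ZT2, ZT6 and ZT10, ZT14 and ZT18. Since each timepoint lies in 1 cluster, a difference between pairs cannot be told apart from a batch that runs with them. Of the 6 steps around the cycle, 3 stay within a pair (ZT10 minus ZT6, ZT18 minus ZT14 and ZT2 minus ZT22). Of the SCN markers, *Vip*, a neuropeptide of SCN neurons, had means between 963 and 2756 CPM over the timepoints. *Six6*, a transcription factor of the SCN, had means between 45.8 and 182 CPM. The lowest timepoint means of further SCN markers were 2.26 CPM for *Prok2*, 5.37 for *Avp*, 39.2 for *Grp*, 54.9 for *Rgs16*, 93.8 for *Nms* and 147 for *Lhx1*.

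Of the 10 genes, 9 changed with time, where 44% of all tested genes did. The exception was *Gjb6*, with q = 0.0537. The tested genes include many with few reads. When only those with at least 10 counts in every replicate were tested, 7786 of 11444 changed, and so did all 10 astrocyte genes. The 10 genes did not follow a single course. *Slc1a2*, *Slc1a3*, *Glul* and *Gja1* were lowest in the pair ZT6 and ZT10, in the light phase, and highest in the pair ZT22 and ZT2. *Aldh1l1* shared the low pair but had its highest mean at ZT18. *Aqp4* was high at ZT22 and ZT2 alone, *Gfap* at ZT14 and ZT18 alone, *S100b* dipped at ZT14, and *Sox9* had its highest means at ZT6 and ZT10. In RNA from whole tissue, fewer cells of a type and less RNA per cell cannot be told apart.

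**Figure D1:**
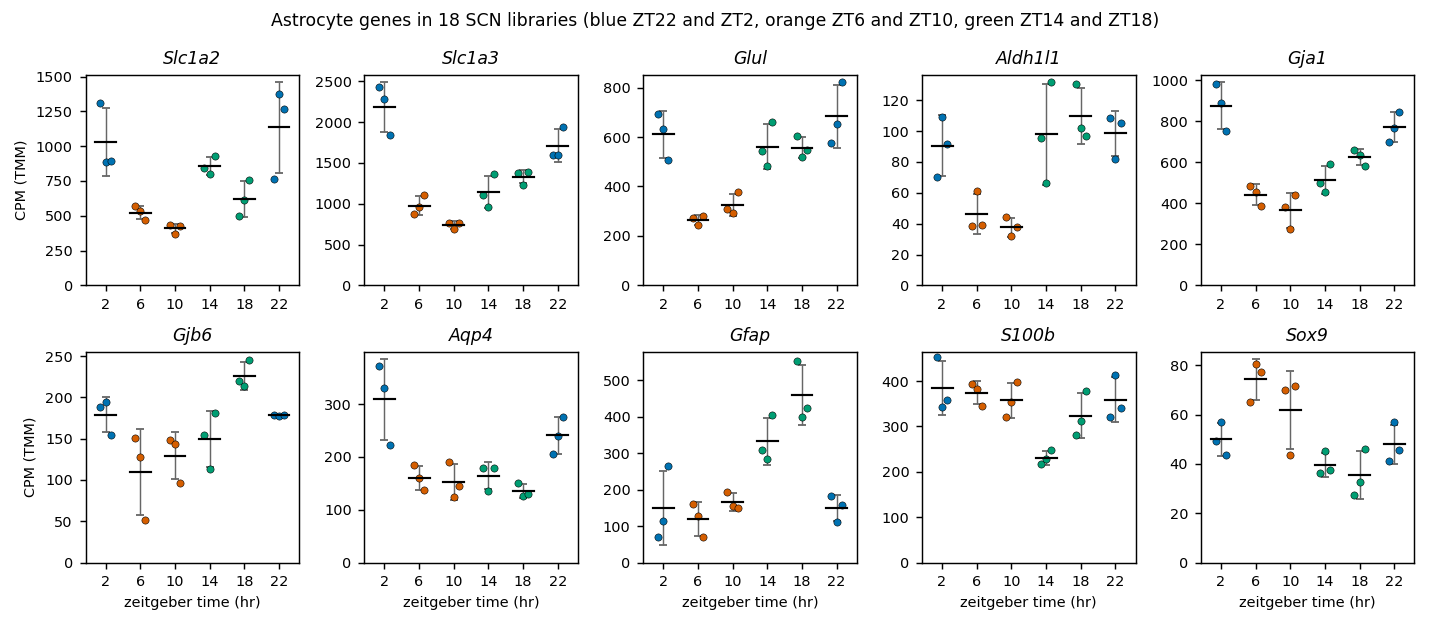
CPM (y axis, from 0) of each of the 10 astrocyte genes at each zeitgeber time (x axis, hr). Points are the 3 replicates, black lines the mean, grey bars the SD and colours the 3 pairs of timepoints: *Slc1a2*, *Slc1a3*, *Glul*, *Aldh1l1* and *Gja1* dip at ZT6 and ZT10, *Gfap* is high at ZT14 and ZT18, and *Sox9* is high at ZT6 and ZT10.

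On GRCm38, the genes whose positions are given here are *Slc1a2* at chr2:102658659-102790784, *Slc1a3* at chr15:8634124-8710764, *Glul* at chr1:153899944-153909723, *Aldh1l1* at chr6:90486427-90600203, *Gja1* at chr10:56377330-56402513, *Gjb6* at chr14:57123303-57133611, *Gfap* at chr11:102887336-102900912, *S100b* at chr10:76253853-76261159 and *Sox9* at chr11:112782224-112787760. The strand setting of the counting is not given in the sources used here, so reads of annotated genes on the opposite strand, which overlap *Gfap*, *Aqp4*, *Slc1a2*, *Glul*, *Aldh1l1* and *S100b* (there *Dip2a*), cannot be told apart from theirs. *Gja1*, *Gjb6* and *Sox9* overlap no annotated gene.

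Since most of the 10 genes also passed the cycling rule described further on, their starts were searched on both strands for short motifs bound by clock factors and by factors that act on astrocyte genes. RefSeq (GRCm38.p6) gave 300-base windows around the start of 8 of the 10 genes, without *Aqp4* and *Sox9*. The E-box (CACGTG) of the CLOCK and BMAL1 proteins, the D-box (TTATGTAA) and the cyclic AMP element (TGACGTCA) were in 0 of the 8 windows, and in 7.15%, 0.938% and 1.79% of all 32851 promoter windows. The core of the ROR and REV-ERB element (RORE, AGGTCA) was in 4 of the 8, those of *Aldh1l1*, *Gfap*, *Glul* and *Slc1a2*, and in 16.3% of all. The STAT motif (TTCNNNGAA) was in 2 of the 8, those of *Gfap* and *Slc1a3*, and in 8.3% of all, and the AP-1 motif (TGACTCA) was in 1, that of *Gja1*, and in 5.2%. These motifs do not overlap each other in the windows, and a match describes letters and is no evidence of binding. The RORE core did not go with 1 course. *Gfap* holds it but took another course, while *Slc1a3* and *Gja1* were lowest in the pair ZT6 and ZT10 without it. The windows of 4 genes are shown because *Gfap* and *Slc1a3* share the STAT letters but not their course, while *Glul* and *Aldh1l1* share the RORE core and low levels at ZT6 and ZT10. They lie at chr11:102897151-102897450 (minus strand), chr15:8710758-8711057 (minus strand), chr1:153899679-153899978 (plus strand) and chr6:90550543-90550842 (plus strand), those of *Gfap* and *Aldh1l1* inside the span of the Ensembl gene, and are written 5′ to 3′ with matches in capitals.
Gfap: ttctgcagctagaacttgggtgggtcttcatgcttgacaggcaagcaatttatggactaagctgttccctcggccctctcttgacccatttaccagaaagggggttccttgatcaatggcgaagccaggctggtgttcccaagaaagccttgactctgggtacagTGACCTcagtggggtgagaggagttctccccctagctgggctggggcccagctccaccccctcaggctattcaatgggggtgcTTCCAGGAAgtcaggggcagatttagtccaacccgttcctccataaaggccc
Slc1a3: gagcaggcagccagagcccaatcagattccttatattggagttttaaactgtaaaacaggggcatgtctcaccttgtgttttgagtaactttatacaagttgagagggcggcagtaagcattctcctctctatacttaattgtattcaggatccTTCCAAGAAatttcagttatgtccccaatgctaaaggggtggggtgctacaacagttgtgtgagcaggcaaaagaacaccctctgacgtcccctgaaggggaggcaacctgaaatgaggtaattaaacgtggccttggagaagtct
Glul: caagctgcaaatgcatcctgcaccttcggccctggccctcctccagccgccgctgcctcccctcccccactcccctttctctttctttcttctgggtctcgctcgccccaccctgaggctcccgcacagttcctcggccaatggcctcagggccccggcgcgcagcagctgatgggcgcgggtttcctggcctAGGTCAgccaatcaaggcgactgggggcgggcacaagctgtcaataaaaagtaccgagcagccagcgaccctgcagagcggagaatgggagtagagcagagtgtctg
Aldh1l1: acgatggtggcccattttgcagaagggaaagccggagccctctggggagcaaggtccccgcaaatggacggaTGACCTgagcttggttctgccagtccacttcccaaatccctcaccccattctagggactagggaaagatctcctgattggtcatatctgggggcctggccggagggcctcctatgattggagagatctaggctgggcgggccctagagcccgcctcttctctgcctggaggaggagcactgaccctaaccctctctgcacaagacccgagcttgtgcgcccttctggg
In the *Gfap* window the capitals mark a RORE core, read on the other strand, and a STAT match. In the *Slc1a3* window they mark a STAT match, and in the *Glul* and *Aldh1l1* windows a RORE core, for *Aldh1l1* read on the other strand.

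*Slc1a3* had the highest CPM of the 10 genes. Its replicates A, B and C had 1598, 1596 and 1943 CPM at ZT22 and 2427, 2288 and 1842 at ZT2, then 868, 956 and 1109 at ZT6 and 768, 685 and 761 at ZT10, and finally 1110, 965 and 1360 at ZT14 and 1378, 1235 and 1385 at ZT18. All libraries of ZT22 and ZT2 stood above all others, and those of ZT10 stood below all others. The highest mean was 2.96-fold the lowest (q = 6.1e-06). *Slc1a3* fell by 1.16 ± 0.16 on the log2 scale from ZT2 to ZT6 (q = 3.2e-05) and rose by 0.63 ± 0.16 from ZT10 to ZT14 (q = 0.0116). The second step no longer passed without ZT10 replicate B (0.58) or without ZT14 replicate C (0.49).

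*Slc1a2*, the main glutamate transporter of the forebrain, had 765, 1373 and 1269 CPM at ZT22 and 1312, 889 and 892 at ZT2, then 567, 532 and 470 at ZT6 and 431, 372 and 424 at ZT10, and finally 844, 799 and 927 at ZT14 and 498, 612 and 755 at ZT18. ZT10 lay below every other timepoint, while ZT18 overlapped ZT6, and ZT22 overlapped ZT2. The mean at ZT22 was 2.78-fold that at ZT10 (q = 0.000108). *Slc1a2* passed each of the 3 steps between pairs, with log2 differences of -0.98 ± 0.22 from ZT2 to ZT6 (q = 0.00181), 1.07 ± 0.22 from ZT10 to ZT14 (q = 0.0024) and 0.87 ± 0.22 from ZT18 to ZT22 (q = 0.00868). Without ZT22 replicate B the last was 0.71 (q = 0.0574).

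*Glul*, which acts on the glutamate that both transporters bring in, had 574, 652 and 824 CPM at ZT22 and 693, 632 and 507 at ZT2, then 272, 242 and 281 at ZT6 and 309, 292 and 376 at ZT10, and finally 543, 482 and 659 at ZT14 and 604, 521 and 546 at ZT18. The 6 libraries of ZT6 and ZT10 were below the other 12, which overlapped each other. The fold of the highest over the lowest mean was 2.58 (q = 2.89e-05). *Glul* fell by 1.2 ± 0.18 on the log2 scale from ZT2 to ZT6 (q = 4.84e-05) and rose by 0.78 ± 0.18 from ZT10 to ZT14 (q = 0.00477). The 3 genes of glutamate uptake and conversion thus passed both of these steps in the same directions. With the GC and length correction described further on, none of the 3 passed from ZT10 to ZT14, with 0.43 for *Slc1a2* (q = 0.192), 0.32 for *Slc1a3* (q = 0.272) and 0.54 for *Glul* (q = 0.117), and *Slc1a2* did not pass from ZT2 to ZT6 either.

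*Aldh1l1* had 109, 81.8 and 105 CPM at ZT22 and 70.1, 109 and 91.8 at ZT2, then 38.4, 60.9 and 39.1 at ZT6 and 44.1, 31.8 and 37.5 at ZT10, and finally 95.6, 66.4 and 132 at ZT14 and 131, 102 and 96.6 at ZT18. As for *Glul*, the 6 libraries of ZT6 and ZT10 were the lowest, and the other 4 timepoints overlapped. Its fold over the cycle was 2.91 (q = 0.000286). It fell by 0.97 ± 0.26 from ZT2 to ZT6 (q = 0.00686) and rose by 1.37 ± 0.26 from ZT10 to ZT14 (q = 0.0014), the largest rise of the 10 genes over that step.

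Of the connexin genes, *Gja1* had 698, 768 and 846 CPM at ZT22 and 983, 891 and 754 at ZT2, then 486, 455 and 385 at ZT6 and 382, 274 and 442 at ZT10, and finally 499, 454 and 589 at ZT14 and 657, 636 and 581 at ZT18. The libraries of ZT22 and ZT2 were above all others. The fold over the cycle was 2.39 (q = 9.75e-05), and *Gja1* fell by 0.99 ± 0.18 from ZT2 to ZT6 (q = 0.000351). The later steps between pairs were 0.49 ± 0.18 from ZT10 to ZT14 (q = 0.0677) and 0.30 ± 0.18 from ZT18 to ZT22 (q = 0.264).

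*Gjb6* had 178, 177 and 179 CPM at ZT22 and 189, 194 and 155 at ZT2, then 151, 128 and 51.4 at ZT6 and 148, 143 and 96.3 at ZT10, and finally 154, 113 and 181 at ZT14 and 219, 214 and 246 at ZT18. ZT18 stood above all other timepoints, and ZT6 replicate C was the lowest library. The fold was 2.06, and the time test passed the threshold in 6 of 27 alternatives, among them DESeq2 (q = 0.0169) and leaving out ZT6 replicate C (q = 0.0168). None of its steps passed, the largest being -0.70 ± 0.28 from ZT2 to ZT6 (q = 0.0657).

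*Aqp4* had 206, 240 and 276 CPM at ZT22 and 373, 330 and 223 at ZT2, then 184, 159 and 137 at ZT6 and 190, 124 and 144 at ZT10, and finally 179, 135 and 179 at ZT14 and 151, 125 and 130 at ZT18. The libraries of ZT22 and ZT2 were above the other 12, and the 4 remaining timepoints overlapped each other. The mean at ZT2 was 2.28-fold that at ZT18 (q = 0.000627), with log2 differences of -0.95 ± 0.21 from ZT2 to ZT6 (q = 0.00196) and 0.83 ± 0.21 from ZT18 to ZT22 (q = 0.0101). Without ZT22 replicate C the second was 0.72 (q = 0.0567).

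*Gfap* took another course, with 182, 112 and 158 CPM at ZT22 and 70.5, 113 and 264 at ZT2, then 161, 127 and 69.9 at ZT6 and 193, 154 and 149 at ZT10, and finally 309, 283 and 404 at ZT14 and 552, 400 and 424 at ZT18. The 6 libraries of ZT14 and ZT18 were above the other 12, among which ZT2 replicate C was the highest. The mean at ZT18 was 3.85-fold that at ZT6, the largest fold of the 10 genes (q = 0.000892). *Gfap* fell by 1.61 ± 0.38 on the log2 scale from ZT18 to ZT22 (q = 0.00576), and its difference from ZT10 to ZT14 was 1.00 ± 0.37 (q = 0.0728). Its ZT2 replicates spread widely, with an SD of 102 CPM around a mean of 149 CPM.

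*S100b* had 320, 414 and 341 CPM at ZT22 and 453, 343 and 358 at ZT2, then 394, 384 and 346 at ZT6 and 321, 353 and 399 at ZT10, and finally 218, 228 and 248 at ZT14 and 281, 312 and 378 at ZT18. ZT14 lay below all other timepoints, which overlapped. The fold was 1.66, the smallest of the 10 genes (q = 0.0118), and *S100b* fell by 0.63 ± 0.16 from ZT10 to ZT14 (q = 0.0115). The time test gave q = 0.071 without ZT14 replicate A and 0.0577 without ZT14 replicate B. The step no longer passed without ZT10 replicate C (-0.55) or without ZT14 replicate A (-0.59).

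*Sox9* had 41.1, 56.8 and 45.7 CPM at ZT22 and 49.4, 56.9 and 43.7 at ZT2, then 64.9, 80.7 and 77.3 at ZT6 and 70.1, 43.7 and 71.7 at ZT10, and finally 36.1, 45.3 and 37.6 at ZT14 and 27.2, 32.8 and 46.1 at ZT18. The ZT6 libraries were above all those of ZT22, ZT2, ZT14 and ZT18, and ZT10 replicate B lay apart from the other ZT10 libraries. The fold was 2.10 (q = 0.00668), with a log2 difference of 0.57 ± 0.23 from ZT2 to ZT6 (q = 0.0627) and -0.64 ± 0.23 from ZT10 to ZT14 (q = 0.0642).

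Levels were also divided by the length of all annotated exons of a gene merged. The order of genes depends on that choice. Merged exons and longest transcript had 8537 and 4435 bases for *Slc1a3* and 10257 and 3889 for *Gja1*, but both had 1484 for *S100b*. Per kilobase of merged exon, the mean level over the 18 libraries was 228 CPM per kb for *S100b*, 158 for *Slc1a3* and 151 for *Glul*. By this length *Gjb6*, *Gja1*, *Slc1a2* and *Gfap* had 60.6, 58.4, 58.1 and 54.3 CPM per kb, followed by *Aqp4* at 31.1 and *Aldh1l1* at 17.7. *Sox9* was the lowest at 12.5 CPM per kb.

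Cycling genes were those past both the edgeR time test and JTK_CYCLE, a rank test for a 24 hr rhythm (p under 0.05 after Bonferroni adjustment over lags). The study's rule has the same form with DESeq2 in place of edgeR. By this measure 9 of the 10 genes cycled, against 29.8% of all tested genes. With the DESeq2 time test, which alone called 9986 of the 18941 tested genes against 8343 in edgeR, 10 did. JTK_CYCLE placed the peak at ZT22 for *Slc1a2*, *Slc1a3*, *Glul*, *Aldh1l1* and *Gja1*, at ZT2 for *Aqp4* and *S100b*, at ZT18 for *Gfap* and *Gjb6*, and at ZT6 for *Sox9*. The exact p of JTK_CYCLE was between 8.53e-05 (*Slc1a3* and *Gja1*) and 0.0319 (*Aqp4* and *S100b*), and *Gjb6* had 0.0178 without passing the time test. After adjusting that p over all genes, 5 of the 10 cycled, and the share of all tested genes under this rule is not given here. The clock genes *Per1*, *Per2* and *Dbp* had JTK_CYCLE peaks at ZT10, ZT10 and ZT6.

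Steps between pairs and within pairs were then set side by side. From ZT2 to ZT6, 6 of the 10 genes fell (*Slc1a2*, *Slc1a3*, *Glul*, *Aldh1l1*, *Gja1* and *Aqp4*) against 16.3% of all tested genes, and 0 rose against 17.5%, in edgeR. The median log2 difference of the 10 was -0.96, beside -0.03 over all tested genes. DESeq2 called 7 of the 10, and 7195 of the 18941 tested genes, 3568 of them lower. With at least 10 counts in every replicate edgeR called 8 of the 10, and 5716 of 11444 genes, 2577 of them lower. From ZT10 to ZT14, 4 rose (*Slc1a2*, *Slc1a3*, *Glul* and *Aldh1l1*) against 9.31%, and *S100b* fell against 7.52%, with a median of 0.56 beside 0.12 over all genes. From ZT18 to ZT22, *Slc1a2* and *Aqp4* rose against 6.27%, and *Gfap* fell against 11.9%, with a median of 0.30 beside -0.04.

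The scaling bore on the last 2 of these steps. Upper-quartile scaling in place of TMM shifted the 10 genes by a median of -0.15 from ZT10 to ZT14 and by 0.15 from ZT18 to ZT22. Over all tested genes, the numbers higher and lower went from 1764 and 1425 to 1331 and 1870 in the former, and from 1187 and 2248 to 1907 and 1950 in the latter. *Slc1a3* from ZT10 to ZT14 was then 0.48 and no longer passed.

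Within pairs, no step of the 10 genes passed in edgeR or in DESeq2. Of all tested genes, edgeR called 0.0475% for ZT10 minus ZT6, 0.57% for ZT18 minus ZT14 and 0.0317% for ZT2 minus ZT22. For the same 3 steps DESeq2 called 252, 844 and 34 of the 18941 tested genes. At an unadjusted p under 0.05, *Slc1a3* differed from ZT6 to ZT10 (-0.41 ± 0.16) and from ZT22 to ZT2 (0.35 ± 0.16). The same held from ZT14 to ZT18 for *Slc1a2* (-0.46 ± 0.21), *Gjb6* (0.60 ± 0.28) and *S100b* (0.49 ± 0.16). Of the 18941 tested genes, 2042 had such a p from ZT6 to ZT10, 2564 from ZT14 to ZT18 and 680 from ZT22 to ZT2. In 1 test over the 3 steps together, 0 of the 10 genes passed with edgeR and 0 with DESeq2. Over all tested genes edgeR called 0.116% and DESeq2 called 789 of 18941. At an unadjusted p under 0.05, 2 of the 10 differed with each tool. Beside them stood 2208 of the 18941 tested genes with edgeR and 2867 with DESeq2, shares near that of the 10. Between pairs, 10 of the 10 passed, against 54% of all tested genes. With at least 10 counts in every replicate 10 again passed, beside 8486 of 11444 genes. Differences between pairs held between 66.8% (*S100b*) and 96.9% (*Aldh1l1*) of the variance of a gene's timepoint means.

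**Figure D2:**
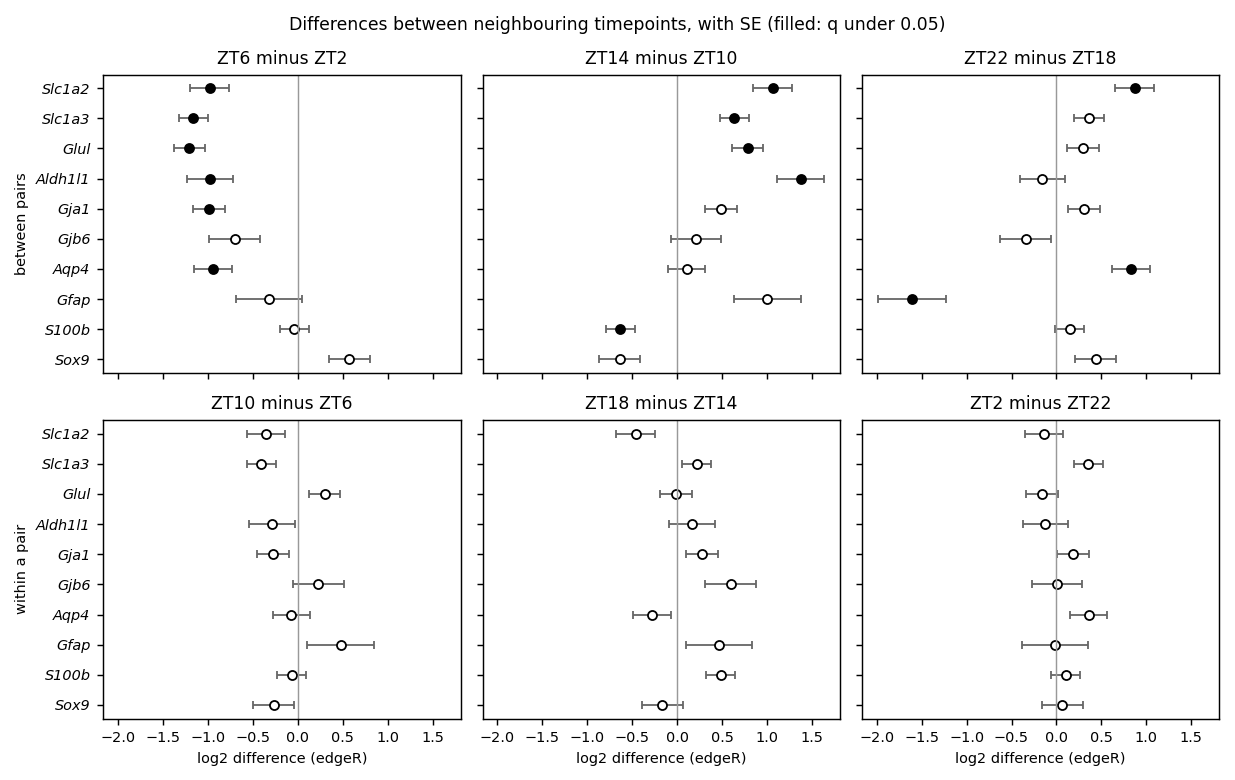
Log2 difference (x axis, edgeR) of each astrocyte gene (y axis) for the 3 steps between pairs of timepoints (upper row) and the 3 steps within pairs (lower row), with bars for the SE. Filled points have q under 0.05 and all lie in the upper row, 6 in ZT6 minus ZT2, 5 in ZT14 minus ZT10 and 3 in ZT22 minus ZT18.

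To separate a shift that the genes share from the part particular to each gene, every gene's log2 CPM was centred on its own mean over the 18 libraries. The mean over the 10 genes was 0.27 ± 0.11 (SD, n = 3) at ZT22 and 0.31 ± 0.06 at ZT2, against -0.36 ± 0.19 at ZT6 and -0.41 ± 0.15 at ZT10, with 0.03 ± 0.20 for ZT14 and 0.16 ± 0.07 for ZT18. By library it ran from -0.58 (ZT10 replicate B) to 0.38 (ZT22 replicate C). The median over all tested genes ran from -0.26 (ZT6 replicate C) to 0.17 (ZT14 replicate C). At ZT22 and ZT2, 7 or 8 of the 10 genes were above their own median in each library, and at ZT6 and ZT10 between 1 and 3 were. The 10 genes together took between 0.237% and 0.322% of the counted reads in the libraries of ZT6 and ZT10, and between 0.378% and 0.66% in the others, so these ranges did not overlap. Most of that sum came from *Slc1a3*, *Slc1a2*, *Gja1* and *Glul*, with means of 1349, 763, 599 and 501 CPM over all libraries. *S100b*, *Gfap* and *Sox9* had means of 338, 229 and 51.5 CPM.

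The shared course held 34.6% of the variance of the 10 genes' timepoint means, where identical courses would give 100% and unrelated courses of equal size would average to 10%. Without *Sox9* it was 48.4% and without *Gfap* 47.0%, while leaving out any 1 of *Slc1a2*, *Slc1a3*, *Glul*, *Aldh1l1* and *Gja1* gave between 29.7% and 30.8%. Within timepoints, where libraries share both the time and the cluster, the shared part was 22.1% of the variance. A shared part of this size was not particular to the 10 genes. In marker lists of other cells, described further on and of 6 to 10 genes each, it ran from 8.89% (endothelial cells) to 47.8% (SCN neurons) between timepoints. Within timepoints it ran from 10.2% (endothelial cells) to 44.5% (oligodendrocytes). For genes of reactive astrocytes it was 34.9% between and 22.9% within timepoints. Over the 18 libraries, which differ from each other in depth, cluster and GC dependence, the Pearson correlation of a gene with the mean of the other 9 was 0.91 for *Gja1*, 0.86 for *Glul*, 0.83 for *Slc1a3*, 0.80 for *Aldh1l1*, 0.76 for *Slc1a2*, 0.67 for *Gjb6* and 0.55 for *Aqp4*. It was -0.03 for *Gfap*, -0.10 for *S100b* and -0.59 for *Sox9*. For deviations within timepoints it was highest for *Gja1* (0.71) and *Aqp4* (0.65), and it was -0.09 for *Gfap* and 0.05 for *Sox9*.

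**Figure D3:**
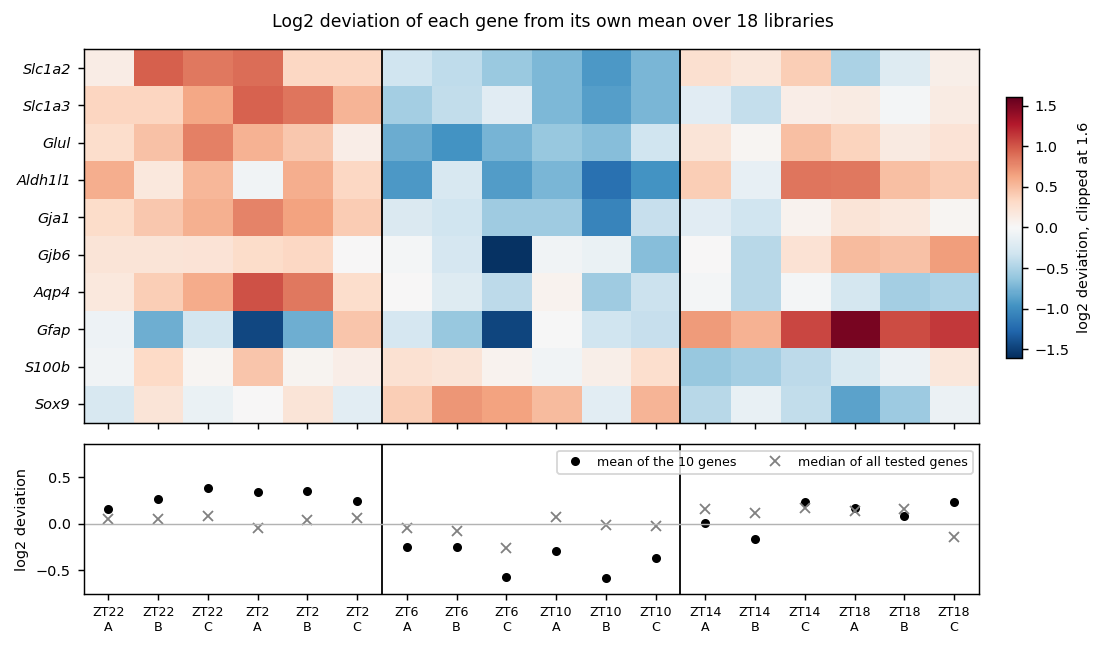
Log2 deviation of each astrocyte gene (rows) from its own mean in each of the 18 libraries (columns, vertical lines between the pairs of timepoints), and below it the mean over the 10 genes (points) beside the median of all tested genes (crosses). The mean runs from -0.58 in ZT10 replicate B to 0.38 in ZT22 replicate C, and the *Gfap*, *S100b* and *Sox9* rows do not follow it.

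Each gene was next taken relative to the mean log2 CPM of the other 9, which removes a change that all share. *Gfap* stood at 0.82 ± 0.09 at ZT14 and 1.19 ± 0.27 at ZT18, against -0.73 ± 0.45 at ZT22 and -1.01 ± 1.13 at ZT2 (log2, SD, n = 3). *Sox9* stood at 1.05 ± 0.32 at ZT6 and 0.78 ± 0.29 at ZT10, and at -0.75 ± 0.39 at ZT18. *S100b* stood at 0.59 ± 0.10 and 0.57 ± 0.27 at ZT6 and ZT10, and at -0.61 ± 0.17 at ZT14. *Sox9* and *S100b* were thus both high relative to the others at ZT6 and ZT10, and *Gfap* at ZT14 and ZT18. *Aqp4* had its lowest relative level at ZT18 (-0.67 ± 0.15) and its highest at ZT2 (0.45 ± 0.36). The range of relative levels was smallest for *Gja1*, with 0.62 between the highest and the lowest timepoint.

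With the edgeR fit scaled to the other 9 genes in place of the library total, 9 of the 10 genes changed with time, again without *Gjb6* (q = 0.267). Over the 10 such fits a median of 45.4% of all tested genes were called. On this scale *Sox9* rose by 1.40 ± 0.26 from ZT2 to ZT6 (q = 0.000292) and fell by 1.15 ± 0.26 from ZT10 to ZT14 (q = 0.00367). *S100b* rose by 0.70 ± 0.19 and fell by 1.19 ± 0.19 over the same steps (q = 0.0071 and 0.00022). A gene that stays level rises on this scale when the others fall. In the main fit the difference of *S100b* from ZT2 to ZT6 was -0.04 (q = 0.882), so it rose only relative to the others. *Gfap* fell by 1.89 ± 0.40 from ZT18 to ZT22 (q = 0.00274). *Slc1a3* and *Glul* fell from ZT2 to ZT6 by 0.51 ± 0.18 (q = 0.0327) and 0.57 ± 0.18 (q = 0.0196). *Slc1a2*, *Aldh1l1*, *Gja1* and *Aqp4* did not pass that step, with log2 differences between -0.36 and -0.31. From ZT10 to ZT14, *Slc1a2* rose by 0.70 and *Aldh1l1* by 1.01, while *Slc1a3* (0.20, q = 0.497) and *Glul* (0.37, q = 0.183) did not pass. From ZT18 to ZT22, *Slc1a2* rose by 0.83 and *Aqp4* by 0.79.

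**Figure D4:**
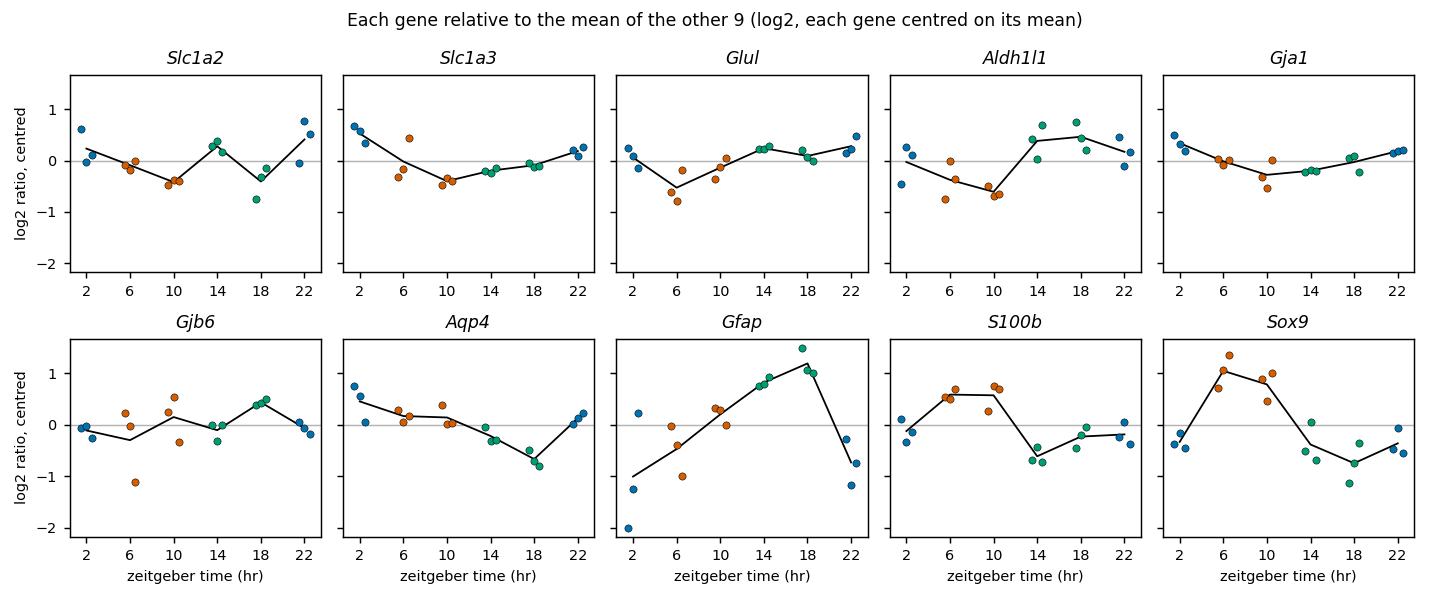
Log2 ratio of each astrocyte gene to the mean of the other 9 (y axis, each gene centred on its mean) at each zeitgeber time (x axis, hr). Points are libraries coloured by pair of timepoints and lines join the means: *Gfap* reaches 1.19 at ZT18, *Sox9* is at 1.05 at ZT6, and *Gja1* has the smallest range.

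Base composition moved with the timepoints. Over 15627 genes, the Spearman correlation of the log2 deviation with the GC content of the longest transcript was -0.28 at ZT22 and -0.37 at ZT2, against 0.10 at ZT6 and 0.21 at ZT10, with 0.34 for ZT14 and 0.17 for ZT18. That with transcript length was between -0.31 (ZT10) and 0.20 (ZT2). The transcripts of *Aqp4*, *Gja1*, *Slc1a2* and *Slc1a3* have 41.4% to 45.7% GC, below the median of 49.7%, and those of *Aldh1l1* and *Gfap* have 54.4% and 55.5%. After a correction for GC content and length, chosen after seeing the data, 7 of the 10 genes changed with time, against 39.9% of all tested genes, without *Aqp4* (q = 0.0507), *Gjb6* (q = 0.0671) and *S100b* (q = 0.0631).

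With that correction, *Slc1a3*, *Glul*, *Aldh1l1* and *Gja1* fell from ZT2 to ZT6 by 0.59, 0.68, 0.74 and 0.47 on the log2 scale, and *Sox9* rose by 1.15 (q = 0.00567). *Slc1a2* and *Aqp4* had -0.46 and -0.39 and did not pass. From ZT10 to ZT14 *Aldh1l1* rose by 0.78 (q = 0.0439) and *Sox9* fell by 1.05 (q = 0.0254), and from ZT18 to ZT22 *Gfap* fell by 1.36 (q = 0.00328). The shared part of the variance was then 23.7% between timepoints and 38.2% within them. Over all tested genes, 828 were higher and 1337 lower from ZT10 to ZT14, and 3542 higher and 2282 lower from ZT2 to ZT6.

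The second deposited table holds other reads for ZT6 and ZT10, the timepoints at which most of the 10 genes were low. Reads recovered from it equalled the counts for 94.7% to 96.3% of shared genes per library at the other timepoints, and for 36.8% to 47.1% at ZT6 and ZT10, genes at 0 in both included. At ZT6 and ZT10 recovered over counted reads had a median log2 ratio of -0.02 for *Slc1a2*, -0.20 for *S100b* and -0.24 for *Aldh1l1*. On the recovered reads 9 of the 10 genes changed with time, the shared part was 23.6%, and *Slc1a3* from ZT10 to ZT14 was 0.42 (q = 0.0852).

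The other astrocyte genes, 48 in 5 lists, did not share 1 course. In all 35 changed with time, and the counts of each list that follow are to be read against the 44% of all tested genes that did. That share is larger among well-counted genes. With at least 10 counts in every replicate, 7786 of 11444 genes changed, and 39 of the listed genes did. Of the 35, 19 had their lowest mean in the pair ZT6 and ZT10, 10 in ZT22 and ZT2 and 6 in ZT14 and ZT18, where all genes that changed with time split as 3249, 3482 and 1612. Their shared part was 4.55% of the variance of the timepoint means, where 48 unrelated courses would average to 2.08%.

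Among genes of transport and ion balance, 8 of 11 changed with time. *Kcnj10*, a channel that buffers potassium, had its highest mean at ZT2 (368 ± 46.8 CPM) and its lowest at ZT10 (148 ± 19.9, q = 0.00011). *Mlc1*, a membrane protein of the end-feet, ran the other way, from 98.7 ± 26.0 CPM at ZT2 to 263 ± 14.4 at ZT18 (q = 0.000649). *Slc4a4*, a bicarbonate transporter, had the smallest range of those that changed, between 137 ± 22.3 and 219 ± 34.0 CPM (q = 0.0192).

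Of the genes of metabolism and lipids 11 of 12 changed with time. From ZT2 to ZT6, 8 fell and 1 rose, against 16.3% and 17.5% of all tested genes. The median log2 difference of the list was -1.31. *Dio2*, the deiodinase that activates thyroid hormone, had 47.5 ± 16.8 CPM at ZT22 and 4.61 ± 6.19 at ZT6 (q = 0.00311). *Fabp7*, a fatty acid binding protein, was highest at ZT6 (314 ± 30.4 CPM) and lowest at ZT14 (41.2 ± 12.3, q = 1.23e-07). *Plpp3*, a lipid phosphatase, lay between 137 ± 2.75 CPM at ZT14 and 233 ± 14.1 at ZT6 (q = 0.0173).

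Of the matrix and secreted genes 3 of 7 changed with time, close to the 44% of all tested genes. The proteoglycan genes *Ncan* and *Bcan* went in opposite directions: *Ncan* had 595 ± 10.2 CPM at ZT2 and 134 ± 28.6 at ZT10 (q = 1.12e-05), while *Bcan* had 34.5 ± 15.2 at ZT2 and 105 ± 32.6 at ZT18 (q = 0.000184). *Sparcl1*, a secreted factor that acts on synapses, had 3855 ± 521 CPM at ZT2 and 1723 ± 376 at ZT6 (q = 5.5e-05).

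Receptor and signalling genes changed in 7 of 9 cases. *Gpr37l1*, a receptor of astrocytes, had 77.1 ± 42.4 CPM at ZT2 and 308 ± 99.8 at ZT18 (q = 0.000555), while *Ndrg2* had 1825 ± 383 at ZT2 and 582 ± 118 at ZT6 (q = 8e-06). *Ntsr2*, a neurotensin receptor, lay between 116 ± 8.90 CPM at ZT14 and 193 ± 11.9 at ZT10 (q = 0.00332).

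Transcription factor genes changed in 6 of 9 cases. From ZT2 to ZT6, the step over which *Sox9* had a positive difference, 4 rose and 1 fell. Of all tested genes 17.5% rose and 16.3% fell over that step. *Id3*, an inhibitor of differentiation, had 27.7 ± 23.3 CPM at ZT2 and 344 ± 49.4 at ZT10 (q = 8.46e-05). *Rfx4* ran the opposite way, from 87.9 ± 11.8 CPM at ZT2 to 10.6 ± 2.00 at ZT10 (q = 2.82e-08), and *Nfib* lay between 47.1 ± 10.8 and 116 ± 59.9 CPM (q = 0.0238).

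Genes of reactive astrocytes changed in 4 of 10 cases, near the 44% of all tested genes. *Vim*, a filament gene like *Gfap*, had 49.8 ± 20.1 CPM at ZT10 and 19.9 ± 4.47 at ZT2 (q = 0.00495). *Osmr*, a cytokine receptor, had 4.44 ± 2.16 CPM at ZT22 and 0.977 ± 0.986 at ZT10 (q = 0.0426). *Lcn2*, a secreted iron-binding protein, was at 0 in every library of ZT6 and ZT10 and had 0.701 ± 0.419 CPM at ZT22 (q = 0.0341). The list's median deviation was highest at ZT22 (0.70) and lowest at ZT10 (-0.79), while *Gfap* was highest at ZT18.

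Markers of other cells were counted in the same way, beside the 44% of all tested genes. For oligodendrocytes 9 of 10 markers changed with time, and their summed level was between 1349 and 3160 CPM over the libraries of ZT6 and ZT10 and between 4855 and 6226 CPM over those of ZT14 and ZT18. *Mbp*, a myelin protein gene, was highest at ZT18 and lowest at ZT6, as *Gfap* was, with means of 3518 and 887 CPM. Precursors of oligodendrocytes had 5 of 6 markers changing with time, microglia 8 of 10, endothelial cells 5 of 10, pericytes and meningeal cells 4 of 8, ependymal cells and tanycytes 3 of 9, neurons in general 8 of 10 and SCN neurons 7 of 8. The counts for endothelial cells, for pericytes and meningeal cells and for ependymal cells and tanycytes are near or below that share. The median of the SCN neuron markers was 1.24 at ZT6 and 0.94 at ZT10, where that of the 10 astrocyte genes was -0.41 at each.

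By library, the median of a list ran from -0.74 to 0.71 for oligodendrocytes, -0.74 to 0.49 for their precursors, -1.17 to 0.56 for microglia, -0.35 to 0.51 for endothelial cells, -0.68 to 0.75 for pericytes and meningeal cells, -1.20 to 0.80 for ependymal cells and tanycytes, -0.46 to 0.51 for neurons in general and -0.95 to 1.33 for SCN neurons. *Foxj1*, which defines ependymal cells, had means between 0.229 and 1.86 CPM, and *Rax*, which defines tanycytes, was at 0 in all ZT2 libraries with a highest mean of 0.548 CPM. The part of other cell types in the course of the astrocyte genes was not tested.

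**Figure D5:**
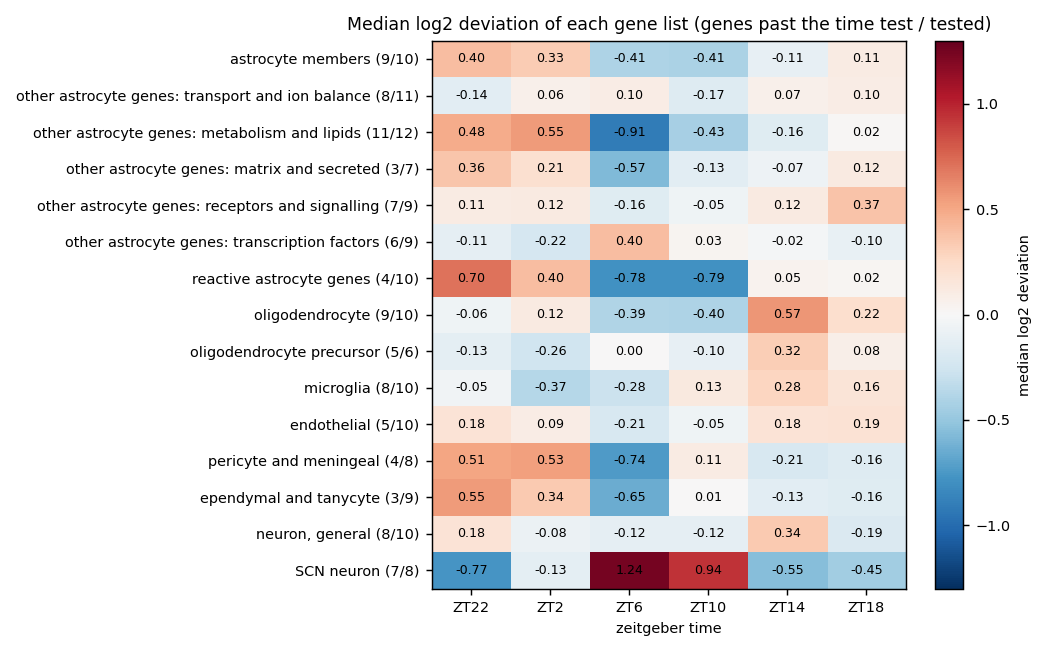
Median log2 deviation of each gene list (rows, with the number past the time test over the number tested) at each timepoint (columns, ordered by pair), printed in each cell. The 10 astrocyte genes are at 0.40 and 0.33 at ZT22 and ZT2 and at -0.41 at ZT6 and ZT10, and the SCN neuron markers are at 1.24 at ZT6.

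Among 9601 genes with a mean of at least 10 CPM, those whose course over the 18 libraries was most like the mean of the 10 astrocyte genes included *Prmt7*, *Dhcr7*, *Elp3* and *Slc39a9*, with Pearson correlations between 0.95 and 0.96. For deviations from the timepoint means they were *Dusp3* (0.86), *Ccdc66* (0.84), *Tmc7* (0.83), *Dpp7* (0.82) and *Ube3b* (0.81). None of the genes named here is in the astrocyte lists, and the libraries differ in depth and GC dependence.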

How the data were processed

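RNA of laser-captured SCN was measured at 6 timepoints in 18 biological replicates, each sequenced on 3 lanes. Reads were mapped by the authors to mm10 using GSNAP and assigned to Ensembl genes using HTSeq 0.5.4p1. The table of counts deposited by the authors is raw, with lanes combined. Their other deposited table holds normalized signal, the reads divided by 1 size factor per column, and 100% of its values were whole multiples of 1 step within 0.01, so reads were recovered from it. The number of sample columns not used is 0. The labels do not say whether pools came from separate cohorts, so p-values measure the spread between these pools. The 10 genes, the lists and the tests were chosen with earlier results of these data known.

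A gene was tested if over 6 replicates had 1 read or more. edgeR 4.0.16 (TMM, quasi-likelihood, Benjamini-Hochberg) was run in R 4.3.3, and log2 CPM used a prior count of 2. DESeq2 1.42.0 and limma 3.58.1 (cosinor) were alternatives. JTK_CYCLE was written in Python 3.11.15 with an exact null and a Bonferroni factor of 6. Annotation was GENCODE M21. The GC and length correction used splines with 5 degrees of freedom. Counts were also simulated for 18821 genes, of which 200 were changed. The time test recovered 0 of 67 changes of 1.5-fold, 35 of 67 of 2-fold and 54 of 66 of 4-fold. Of its 97 calls, 8 were unchanged genes. Genes named beside the 10 are, per astrocyte list, the 2 of largest and the 1 of smallest range past the time test, the 5 most alike by correlation in each way (1 of them is not reported here), defining markers of other cells, and *Per1*, *Per2* and *Dbp*. *Mbp* was chosen after its values were seen.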

Additional observations from a re-analysis of the deposited data

How the results depend on the processing

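With DESeq2, its size factors, upper-quartile scaling, both other count filters, recovered reads, the replicate block and scaling to the other genes, 9 or 10 of the 10 genes changed with time and 9 or 10 differed between the pairs of timepoints. GC and length correction gave 7 and 8. Over all 18941 tested genes the time test called 8343 in the main fit, 9986 with DESeq2 and 7558 with GC and length correction. The test between pairs called 10228, 10859 and 9395. The correction lowered the 14 calls over the 6 steps to 8. It gave 2 in place of 5 from ZT10 to ZT14 and 1 in place of 3 from ZT18 to ZT22. Over all tested genes these 2 steps went from 3189 and 3435 calls to 2165 and 3012. With at least 10 counts in every replicate, ZT10 to ZT14 had 8. That filter left 11444 tested genes, of which 3466 were called at this step and 7786 with time. Adjusting the JTK_CYCLE p over all genes gave 5 cycling genes in place of 9. The shared part of the variance, 34.6% between timepoints, was 36.6% with upper-quartile scaling, 23.6% on recovered reads and 23.7% with GC and length correction. Within timepoints, 22.1%, it was 24.9% with upper-quartile scaling and 38.2% with GC and length correction. The cause of these changes was not tested.

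Leaving out 1 library at a time gave 8 to 10 genes changing with time, 9 to 10 differing between pairs, 13 to 16 calls over all steps, 6 to 7 from ZT2 to ZT6, 4 to 7 from ZT10 to ZT14, 2 to 3 from ZT18 to ZT22, 0 within pairs, 7 to 10 cycling genes, a shared part of 31.3% to 36.9% between and 17.7% to 27.4% within timepoints, and 32 to 40 of the 48 other astrocyte genes in place of 35. No called step of the 10 genes changed sign under these alternatives.

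The replicate letters share only a name: deviations of same-letter libraries correlated between -0.19 and 0.10 over 45 pairs. With the letter as a replicate block, 9 genes changed with time, 10 differed between pairs and 14 steps were called, as without it.

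With 3 pools per timepoint the time test recovered none of the simulated 1.5-fold changes, so changes of that size may have been missed. The simulation changed only 200 of 18821 genes and gave 97 calls, where the data gave 8343. The adjustment over genes was therefore stricter there, and the recovered shares do not carry over directly to the data. Correcting for GC content and length also removes any true change that follows them.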
